A study of Mus musculus with 6 samples.

Results

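Efr3b and the genes of the plasma-membrane PI4KA complex were examined in livers of mice overdosed with acetaminophen (APAP). The 5 genes (Efr3b, its paralog Efr3a, the kinase gene Pi4ka, and Ttc7 and Ttc7b) were taken by gene name from the 34745 genes listed, and all 5 passed the filter on low counts that left 13734 genes. They were chosen because Efr3b differed between APAP and saline livers in these same libraries, so their own differences are described here without a test. RNA was sequenced from whole livers of WT mice given a single intraperitoneal dose of APAP (300 mg/kg, 12 hours) or saline, and the study's methods describe the mice as young adult male C57BL/6J mice fasted before the injection. The records hold 3 livers per group, and 5 libraries were analysed here, namely APAP replicates 1 and 3 and the saline libraries WT1, WT2 and WT3. APAP replicate 2 was not analysed here. Only the group of the WT columns could be assigned, since every sample carries the WT genotype and the other columns bear the APAP name. All direction statements below depend on that assignment. The study's methods describe biological repeats, and the libraries were taken as separate livers.

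The libraries held between 13378445 and 15976339 counts. Levels are given as CPM, the counts of a gene scaled to a common library size after normalization by edgeR's TMM method. The hepatocyte markers checked (9 of 9 listed, none at 0) summed to between 90073 and 140000 CPM in the APAP libraries. In the saline libraries they summed to between 138620 and 198140 CPM. Of the 9, 1, Apoa2, fell (adjusted p = 0.0404, edgeR), and DESeq2 called 3 lower at an adjusted p under 0.05. Among all tested genes, edgeR called 3.53% lower, and DESeq2 called 1155 of 13732 lower (15.2% in either direction). Xist, the RNA of the inactive X chromosome, was at 0.764 and 1.73 CPM with APAP versus 289.6 to 914 CPM with saline. For Ddx3y, a gene of the Y chromosome, the APAP libraries gave 79.0 and 61.7 CPM, while the 3 saline libraries held 0, 0 and 1 counts. The libraries were thus divided by sex-linked expression exactly as by treatment, contrary to the description of male mice, and for every difference below APAP and sex cannot be told apart.

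The kinase PI4KA makes phosphatidylinositol 4-phosphate (PI4P) at the plasma membrane, where PI4P is the precursor of PI(4,5)P2 and a driver of lipid exchange with the endoplasmic reticulum. PI4KA has no membrane anchor of its own. It is held at the plasma membrane by EFR3, a palmitoylated protein encoded by Efr3a or Efr3b, through the scaffold TTC7 (Ttc7, the mouse name of TTC7A, or Ttc7b) and the stabilizing subunit FAM126 (Fam126a or Fam126b), and TMEM150 proteins can bind EFR3 instead. Efr3a is widely expressed, whereas Efr3b is best known from the nervous system. In the liver, PI(4,5)P2 is the substrate of the phospholipases C that release calcium in hepatocytes.

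RefSeq promoter sequences (250 bases before to 50 after the start of transcription, GRCm38.p6) were found for 4 of the 5 genes. Those of Efr3b and Ttc7, the members at higher levels in the APAP libraries, are shown to give the sequence from which each is transcribed, with every match to the GC box (GGGCGG on either strand) in capitals. The Efr3b promoter lies on the minus strand at chr12:4038866-4039165 and the Ttc7 promoter on the plus strand at chr17:87282636-87282935.
Efr3b: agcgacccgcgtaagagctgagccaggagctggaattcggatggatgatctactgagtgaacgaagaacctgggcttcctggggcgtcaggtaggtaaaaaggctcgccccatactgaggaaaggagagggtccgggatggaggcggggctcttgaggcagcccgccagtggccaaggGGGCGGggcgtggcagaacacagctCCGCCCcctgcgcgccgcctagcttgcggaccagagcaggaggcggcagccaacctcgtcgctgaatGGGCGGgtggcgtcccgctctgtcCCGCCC
Ttc7: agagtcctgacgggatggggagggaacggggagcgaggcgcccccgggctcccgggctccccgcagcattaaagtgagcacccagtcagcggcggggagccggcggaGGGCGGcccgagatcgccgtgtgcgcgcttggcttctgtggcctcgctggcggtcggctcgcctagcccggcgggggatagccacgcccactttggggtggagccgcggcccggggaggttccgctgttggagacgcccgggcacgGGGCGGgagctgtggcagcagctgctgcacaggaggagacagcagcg
The Efr3b promoter was 66.3% G and C with 24 CpG dinucleotides, against medians of 52.7% and 7 over 32851 promoters of the same length, and the Ttc7 promoter was 73.7% G and C with 33 CpG. The GC box matched 4 times in the Efr3b promoter and 2 times in that of Ttc7, and 35.66% of all promoters held at least 1 match. The letters of AP-1 (TGANTCA, in 7.81% of promoters), the antioxidant response element core (TGACNNNGC, 12.39%), the heat-shock element (GAANNTTC, 7.86%) and the E-box (CACGTG, 7.15%) were searched on both strands and had no match in either window. These traits were not particular to the 2 genes shown. Both promoter windows of Ttc7b, which was lower with APAP, were richer still (78.0% and 78.7% G and C). Each held 3 GC boxes and none of the other motifs. For Pi4ka, 1 window held a heat-shock element match. A link between these motifs and the levels was not tested.

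Efr3b (ENSMUSG00000020658) lies on the minus strand of chromosome 12 of GRCm38, from 3962554 to 4038915. It had 1737 and 1344 counts in the APAP libraries and 5, 4 and 4 counts in the saline libraries. These counts correspond to 102.1 and 83.1 CPM with APAP and to 0.448, 0.266 and 0.267 CPM in WT1, WT2 and WT3. The transcript was therefore among the more abundant ones in both APAP libraries (above 92.8% and 89.8% of the tested genes) and at the lower end in each saline library (above 6.46%, 1.70% and 1.86%). Its mean was 92.6 ± 13.4 CPM (SD, n = 2) with APAP and 0.327 ± 0.105 CPM (SD, n = 3) with saline. The fitted log2 fold change was 8.15, with a standard error (SE) of 0.30. The ratio of the summed counts, 3081 against 13, was 294-fold per normalized read, with an exact binomial 95% interval of 172 to 553 that covers counting error only. Even the lowest APAP library stood 185-fold above the highest saline library. The saline levels rest on few counts, and the exact Poisson 95% interval of WT1, the highest of them, was 0.146 to 1.05 CPM. Efr3b passed the filter on low counts only through the APAP libraries. The antisense gene Gm48001 shares 19 exon bases with Efr3b and is not listed in the table.

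**Figure D1:**
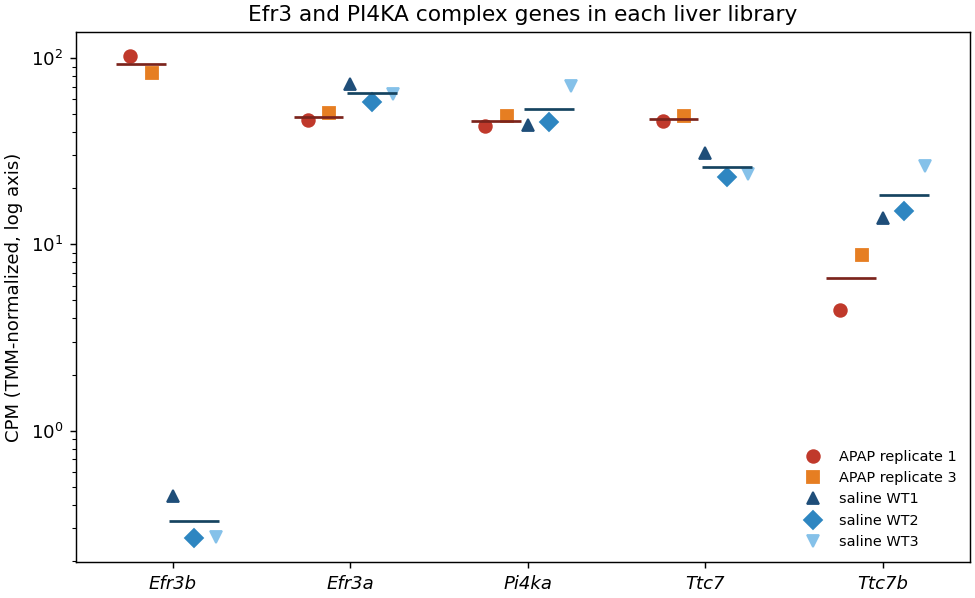
CPM of the 5 genes in each of the 5 libraries on a log axis, with points for libraries and lines for group means. Efr3b lies at 83.1 and 102.1 CPM with APAP and below 0.5 CPM in every saline library, while the other 4 genes differ far less.

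Of the tested genes, 147 had at most 5 counts in every saline library. Ordered by the lower of their APAP levels, Efr3b ranked 1 in this set at 83.1 CPM, ahead of Ddx3y at 61.7 CPM and of the cornified envelope gene Sprr1a at 43.5 CPM. This order was drawn up after the values were seen, and the limit of 5 counts is the highest saline count of Efr3b. Genes within that limit passed the filter on low counts only through the APAP libraries. Efr3b was itself chosen on its difference, so nothing is read from the rank. The 5 genes whose normalized level followed that of Efr3b most closely over the 5 libraries, by the root mean square difference of centred log2 CPM, were Slc7a11 (0.33), Eif2s3y (0.39), Fosl1 (0.45), Kdm5d (0.48) and Uty (0.56). Eif2s3y, Kdm5d and Uty lie on the Y chromosome. Slc7a11 encodes the cystine carrier that supplies glutathione synthesis and was at 42.0 and 17.6 CPM with APAP, with 1, 0 and 0 counts in the saline libraries. Fosl1, which encodes the AP-1 subunit FRA1, was at 21.3 and 22.8 CPM with APAP and had 0, 0 and 1 counts with saline. The closest patterns included autosomal stress genes as well as genes of the Y chromosome. With these libraries the division by treatment and the division by sex give the same pattern. All 5 genes had at most 1 count in any saline library, where a count of 0 stood at −2.89 log2 CPM. Their saline levels, and with them their closeness to Efr3b, were therefore set largely by the prior count of 2. Nothing is read from their order.

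Marker genes of other cell types were read beside Efr3b. Of all tested genes, edgeR called 7.23% and DESeq2 15.2% in either direction (adjusted p under 0.05). By direction, edgeR called 3.70% higher and 3.53% lower, and DESeq2 called 938 higher and 1155 lower of 13732. The neutrophil list summed to 80.7 and 124.6 CPM with APAP against 4.57 to 8.48 CPM with saline. Of its 10 genes 9 were tested, and 2 of the 10 were at 0 in every saline library. All 9 rose (adjusted p under 0.05, edgeR, as given for all calls in these lists), while DESeq2 called 8 higher. The exception was Ngp (adjusted p = 0.151 in DESeq2). Camp, Mmp8, Ngp, Retnlg and Trem1 held at most 8 counts in each saline library, below the minimum count of 10. Cxcr2 (3, 0 and 10 saline counts) and S100a8 (2, 6 and 15) reached that minimum in at most 1 saline library, where the filter needs 2 libraries. All of these genes were kept for testing by their APAP counts alone, so a fall could not have been called for them. The monocyte list summed to 47.4 and 54.4 CPM against 10.3 to 12.5 CPM, and 2 of its 6 genes rose (3 by DESeq2). The edgeR calls were Ccr2 and Chil3, to which DESeq2 added Vcan. Chil3 (2, 3 and 4 saline counts) and Vcan (0, 6 and 9) were likewise kept for testing by their APAP counts alone. The cholangiocyte list summed to 19.3 and 57.2 CPM with APAP, a range that contains the 20.1 to 23.1 CPM of the saline libraries, with no call by edgeR and 2 genes called higher by DESeq2 among 4 tested. The sums of Kupffer cell genes (297.8 and 511 against 304 to 452 CPM) and of endothelial genes (176 and 252 against 171 to 271 CPM) overlapped between the groups with no call by edgeR. Within the Kupffer list the scavenger receptor gene Marco stood apart, at 56.7 and 123 CPM with APAP versus 30.9, 7.51 and 10.1 CPM with saline (adjusted p = 0.0625 in edgeR and 0.00203 in DESeq2). Of the stellate cell genes 1 rose (2 by DESeq2), while that list's sum was lower with APAP (365 and 478 against 481 to 603 CPM). Lymphocyte genes summed to at most 8.04 CPM in any library. The neural list, read because Efr3b is known from nerve cells, summed to 3.70 and 4.64 CPM with APAP against 7.01 to 13.4 CPM, with no call by edgeR among 3 tested genes. That difference lay in Syt1, a synaptic vesicle gene (0.588 and 1.79 CPM versus 10.7, 6.05 and 3.47 CPM, adjusted p = 0.0761 in edgeR and 0.00306 in DESeq2). The other 9 genes summed to 3.11 and 2.84 CPM with APAP and to 2.69, 3.65 and 3.54 CPM with saline, which overlap. The part of these cell types in the level of Efr3b was not tested, and in whole liver a change in the number of cells of a type and a change in RNA per cell cannot be told apart.

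Efr3a (ENSMUSG00000015002, chromosome 15 of GRCm38, 65787034 to 65873816, plus strand) encodes the other EFR3 anchor. Its level was 46.2 and 50.6 CPM with APAP versus 72.7, 58.1 and 64.1 CPM in WT1, WT2 and WT3. Both APAP libraries were below all saline libraries, but the gap between the nearest libraries was small. The means were 48.4 ± 3.10 CPM (SD, n = 2) and 65.0 ± 7.32 CPM (SD, n = 3), with a fitted log2 fold change of −0.42 (SE 0.20). Scaled to library size only, which moved the median of all tested genes from 0.03 to 0.42, the log2 fold change of Efr3a was −0.02.

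The 2 paralogs were compared within each library, where the scaling between libraries has no effect. Efr3b made up 68.8% (exact binomial 95% interval 67.0% to 70.6%) and 62.1% (60.1% to 64.2%) of the Efr3a and Efr3b counts in APAP replicates 1 and 3. In the saline libraries its share was 0.613% in WT1, 0.455% in WT2 and 0.415% in WT3, with upper bounds of at most 1.42%. Efr3a was thus the main EFR3 transcript by counts in all saline libraries and Efr3b in both APAP libraries. The mean log2 ratio of Efr3b to Efr3a counts differed by 8.60 between the groups. The counts of both genes together corresponded to 148 and 134 CPM with APAP and to between 58.4 and 73.1 CPM with saline. The paralogs shared no 50-base word in their longest coding transcripts. None of the words of Efr3a, and 0.646% of those of Efr3b, occurred in another gene, in the case of Efr3b in Txk and Ctf2.

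**Figure D2:**
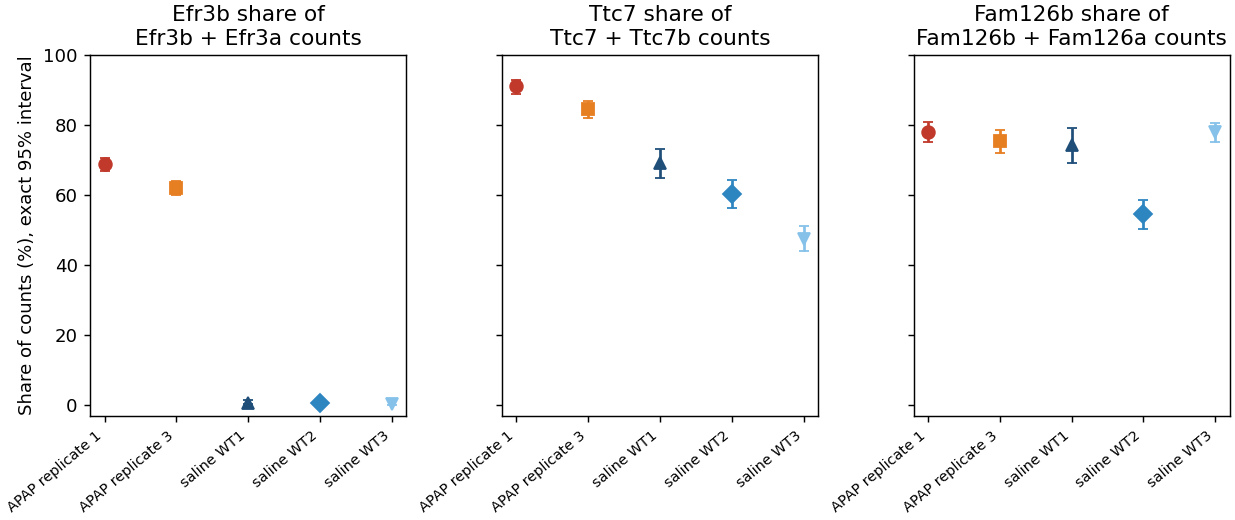
Share of counts taken by the first gene of each paralog pair in each library, in percent, with exact binomial 95% intervals. The Efr3b share is 68.8% and 62.1% in the APAP libraries and below 1% in the saline libraries, the Ttc7 share with APAP exceeds every saline value, and the Fam126b shares overlap.

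The scaffold genes lay on opposite sides. Ttc7 (ENSMUSG00000036918, chromosome 17, 87282886 to 87381769, plus strand) was at 45.9 and 48.6 CPM with APAP versus 30.9, 23.1 and 23.9 CPM with saline. Both APAP libraries were above all saline libraries. The means were 47.3 ± 1.86 CPM (SD, n = 2) and 25.9 ± 4.33 CPM (SD, n = 3), a ratio of 1.82, with a fitted log2 fold change of 0.87 (SE 0.21).

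Ttc7b (ENSMUSG00000033530, chromosome 12, 100300771 to 100520822, minus strand) was at 4.47 and 8.78 CPM with APAP versus 13.8, 15.1 and 26.3 CPM with saline. The APAP libraries were again apart from the saline libraries, here on the lower side, although the saline libraries themselves spread from 13.8 to 26.3 CPM. The means were 6.62 ± 3.05 CPM (SD, n = 2) and 18.4 ± 6.85 CPM (SD, n = 3), a ratio of 0.360, with a fitted log2 fold change of −1.47 (SE 0.42). It was −2.05 without APAP replicate 3, −1.06 without APAP replicate 1, and −1.13 without WT3 or with library size only. Of the 50-base words of its longest coding transcript 13.04% occur in another gene, Gm10432, which shares 582 exon bases with Ttc7b on the other strand, so its count is less certain than those of the other members. Within each library, Ttc7 took 91.1% and 84.7% of the Ttc7 and Ttc7b counts with APAP and 69.1%, 60.5% and 47.6% with saline. The shares of the groups did not overlap, although the saline libraries ranged widely.

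Pi4ka (ENSMUSG00000041720, chromosome 16, 17280351 to 17406314, minus strand), the gene of the kinase itself, was at 43.0 and 49.0 CPM with APAP versus 43.5, 45.5 and 70.6 CPM with saline. The libraries of the 2 groups were interleaved, and WT3 stood above the rest. The means were 45.98 ± 4.29 CPM (SD, n = 2) and 53.2 ± 15.1 CPM (SD, n = 3), with a fitted log2 fold change of −0.21 (SE 0.27). Its sign turned to 0.05 without WT3 and to 0.16 with library size only, so no direction can be given. Tmem191c and Snap29 overlap exons of Pi4ka on the other strand by 240 and 60 bases, and the strand setting of the counting is not given in the sources used here. Serpind1, which had 2685 and 5912 counts with APAP versus 9080, 10506 and 7613 with saline, lies within Pi4ka without sharing exon bases. Tmem191c had at most 26 counts in any library and Snap29 between 364 and 506.

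Of the 5 members, Efr3b and Ttc7 lay above every saline library with APAP, Efr3a and Ttc7b lay below, and Pi4ka overlapped. Among all tested genes the groups did not overlap in 44.1% (24.0% higher and 20.1% lower with APAP), and since the members were chosen on this contrast nothing is read from the count of 4. Per kilobase of merged exons (10.4 kb for Efr3b, 11.4 kb for Efr3a, 11.3 kb for Pi4ka, 6.72 kb for Ttc7 and 7.32 kb for Ttc7b), the order in the saline libraries was Efr3a (5.10 to 6.38 CPM per kb), Pi4ka (3.86 to 6.27), Ttc7 (3.43 to 4.602), Ttc7b (1.89 to 3.59) and Efr3b (0.0256 to 0.0432). Each of the first 4 genes overlapped its neighbour in this order, and Efr3b stood apart from all of them. In the APAP libraries the order of levels per kilobase was Efr3b (8.002 and 9.83 CPM per kb), Ttc7 (6.84 and 7.23), Efr3a (4.06 and 4.44), Pi4ka (3.82 and 4.36) and Ttc7b (0.610 and 1.20). Efr3a and Pi4ka overlapped there, while the other neighbours did not. Per kilobase of the longest coding transcript the order of the APAP levels was the same, but Efr3a no longer overlapped Pi4ka, either with APAP (8.87 and 9.71 against 6.48 and 7.39 CPM per kb) or with saline (11.1 to 13.9 against 6.56 to 10.7).

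The remaining subunits and regulators of the complex were not used in choosing the members. Fam126a and Fam126b, which encode the stabilizing subunit, were at 11.3 and 10.01 CPM and at 40.5 and 31.0 CPM with APAP. In WT1, WT2 and WT3 Fam126a was at 6.99, 16.9 and 14.4 CPM and Fam126b at 20.4, 20.3 and 51.2 CPM. For both genes the saline range contained the APAP values. Tmem150a, which encodes an EFR3-binding protein of the plasma membrane, was at 49.1 and 41.0 CPM with APAP versus 55.5, 73.1 and 49.7 CPM with saline. The log2 difference was −0.40 (SE 0.24, adjusted p = 0.361 in the quasi-likelihood test of edgeR, adjusted over all tested genes). The adjusted p of Fam126a was 0.721 and that of Fam126b 0.800 in the same test, and Tmem150b and Tmem150c, with at most 13 counts in any library, were too low to be tested. No change was detected in these subunits with 2 and 3 libraries.

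The wider pathway was read from 6 lists covering the rest of the complex, the other PI 4-kinases, the supply of phosphatidylinositol, the turnover of PI4P, and the synthesis and breakdown of PI(4,5)P2. Of the 60 genes listed besides the members, 58 were in the table and 50 were tested. None passed an adjusted p of 0.05 in edgeR's quasi-likelihood test, where 7.23% of all tested genes did (3.70% higher and 3.53% lower with APAP). At an unadjusted p under 0.05 there were 10 of the 50, 5 higher and 5 lower, against 24.9% of all tested genes. With a fold change of at least 1.5 as well there were 4 higher and 4 lower, against 23.5% of all tested genes, and DESeq2 called 5 of the 50 at an adjusted p under 0.05, 2 higher (Acbd3 and Plce1) and 3 lower (Pitpnc1, Pitpnm2 and Osbpl9), against 15.2% of all genes in that test. The median log2 fold change of the 50 genes was 0.08, against 0.03 for all tested genes, and individual values lay between −1.21 and 1.52.

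**Figure D3:**
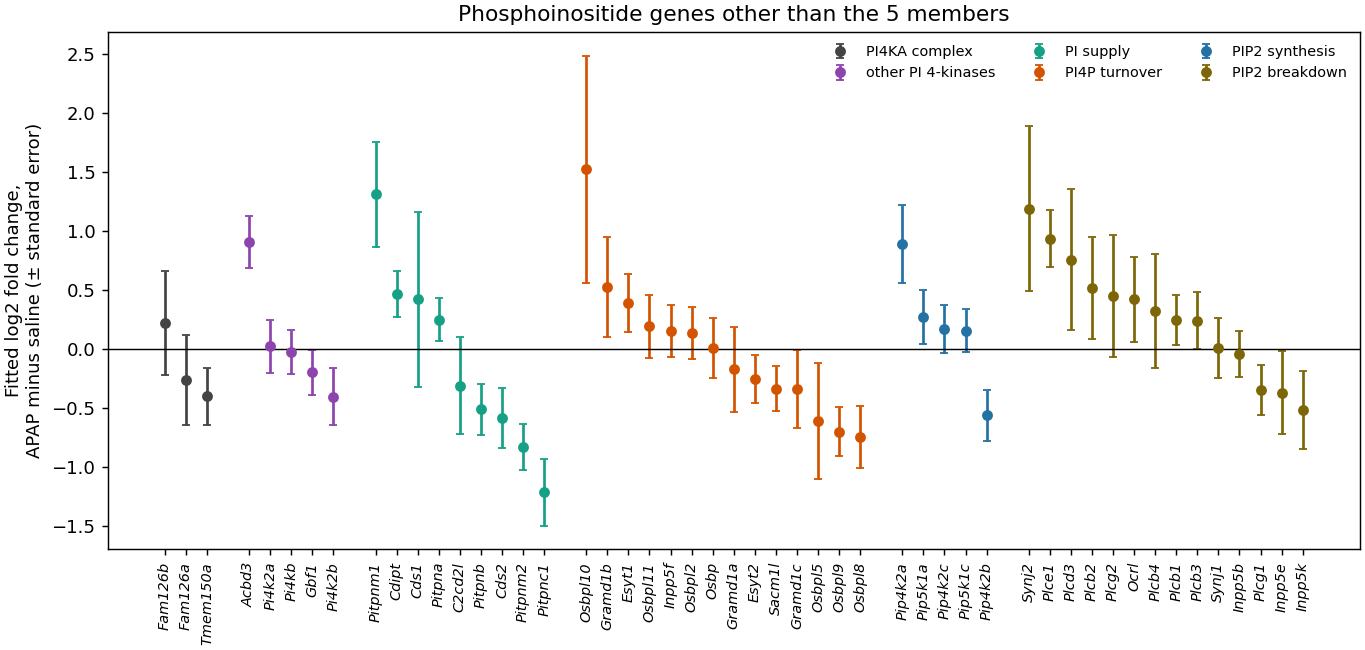
Fitted log2 fold change (APAP minus saline) of the 50 tested phosphoinositide genes other than the 5 members, grouped by list, with bars of 1 standard error. Values lie between −1.21 and 1.52 on both sides of 0 in every list, and none passed an adjusted p of 0.05 in edgeR's test, while DESeq2 called 5.

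Among the other PI 4-kinases, Pi4k2a was at 53.0 and 76.0 CPM with APAP against 60.9 to 67.9 CPM with saline, and Pi4k2b at 37.4 and 34.0 CPM against 39.7 to 59.9 CPM. Their log2 fold changes were 0.02 (SE 0.23) and −0.40 (SE 0.25). Acbd3, which recruits the kinase PI4KB to the Golgi, was at 33.3 and 40.4 CPM with APAP versus 16.2, 21.1 and 21.6 CPM with saline. Both APAP libraries exceeded every saline library for Acbd3, and the fitted value was 0.91 (SE 0.22, adjusted p = 0.0557 in edgeR and 0.0109 in DESeq2). Pi4kb itself, at 33.4 and 29.2 CPM against 31.5 to 32.3 CPM, gave −0.02 on the log2 scale (SE 0.19).

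In the supply of phosphatidylinositol the 2 most abundant genes were Cds2, which makes the CDP-diacylglycerol precursor, and Pitpnb, a phosphatidylinositol transfer protein. Cds2 was at 70.6 and 90.6 CPM with APAP against 97.8 to 141 CPM with saline (adjusted p = 0.212 in edgeR's test), and Pitpnb at 59.6 and 67.3 CPM against 83.2 to 104.5 CPM (adjusted p = 0.204). The lowest adjusted p of all 50 genes was that of Pitpnc1, another transfer protein. It was at 12.8 and 22.9 CPM with APAP versus 40.8, 40.6 and 42.7 CPM with saline, a log2 difference of −1.21 (SE 0.28, adjusted p = 0.0504 in edgeR's test and 0.00205 in DESeq2). Pitpnm2, a membrane-associated transfer protein, was at 21.4 and 21.6 CPM against 34.3 to 40.8 CPM (log2 fold change −0.83, SE 0.20, adjusted p = 0.0523 in edgeR's test and 0.00341 in DESeq2), and its relative Pitpnm1 lay on the other side, at 15.5 and 11.6 CPM against 3.05 to 8.75 CPM (adjusted p = 0.128 in edgeR's test).

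Downstream of PI4P, Osbpl9, an oxysterol-binding protein relative, was at 78.5 and 75.2 CPM with APAP versus 136, 113 and 125 CPM with saline (log2 fold change −0.70, SE 0.21, adjusted p = 0.0947 in edgeR's test and 0.00960 in DESeq2). The PI4P phosphatase gene Sacm1l was at 63.5 and 59.6 CPM against 74.5 to 80.2 CPM (adjusted p = 0.330 in edgeR's test). Pip5k1c and Pip4k2c, the most abundant PI(4,5)P2-synthesizing kinases of the list, had log2 fold changes of 0.16 (SE 0.18) and 0.17 (SE 0.20). In the breakdown of PI(4,5)P2, Plcg1 (−0.35, SE 0.21) and Inpp5b (−0.04, SE 0.19) were the most abundant genes. Plce1, a phospholipase C, was at 17.0 and 15.1 CPM with APAP versus 9.95, 7.31 and 8.02 CPM with saline (log2 fold change 0.94, SE 0.24, adjusted p = 0.0645 in edgeR's test and 0.0311 in DESeq2). Groups that do not overlap were therefore seen for several of these genes (11 of the 50 higher and 13 lower, against 24.0% and 20.1% of all tested genes, so near the background), none of which passed the threshold of edgeR's test.

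The genes around Efr3b were read to see whether the difference extended along chromosome 12. The table lists 10 other genes within 250 kb of Efr3b, of which 7 were tested. Dtnb, Dnmt3a, Dnajc27, Adcy3, Cenpo, Ptrhd1 and Ncoa1 had log2 fold changes between −0.38 (Ncoa1) and 0.76 (Adcy3). None passed an adjusted p of 0.05 in edgeR's quasi-likelihood test or in DESeq2, and 0 had an unadjusted p under 0.05 in edgeR's test, against 7.23%, 15.2% and 24.9% of all tested genes. The libraries of 4 of the 7 were apart, those of Dtnb, Adcy3 and Ptrhd1 higher and those of Ncoa1 lower with APAP, where 44.1% of all tested genes were apart. With 7 genes these counts do not set the neighbours apart from other genes. The nearest gene on the upstream side of Efr3b, Dnajc27, 43.7 kb away, was at 1.41 and 1.55 CPM with APAP versus 0.896, 1.59 and 2.41 CPM with saline. Dnmt3a, a DNA methyltransferase gene 48.1 kb away on the other side, was at 21.3 and 26.8 CPM with APAP against 14.5 to 23.8 CPM with saline. Pomc, the nearest gene at 1.9 kb beyond the 3′ end of Efr3b, had 2 and 1 counts in the APAP libraries and 0 in the saline libraries. The 7 tested neighbours thus differed by less than 1 on the log2 scale, against 8.15 for Efr3b.

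**Figure D4:**
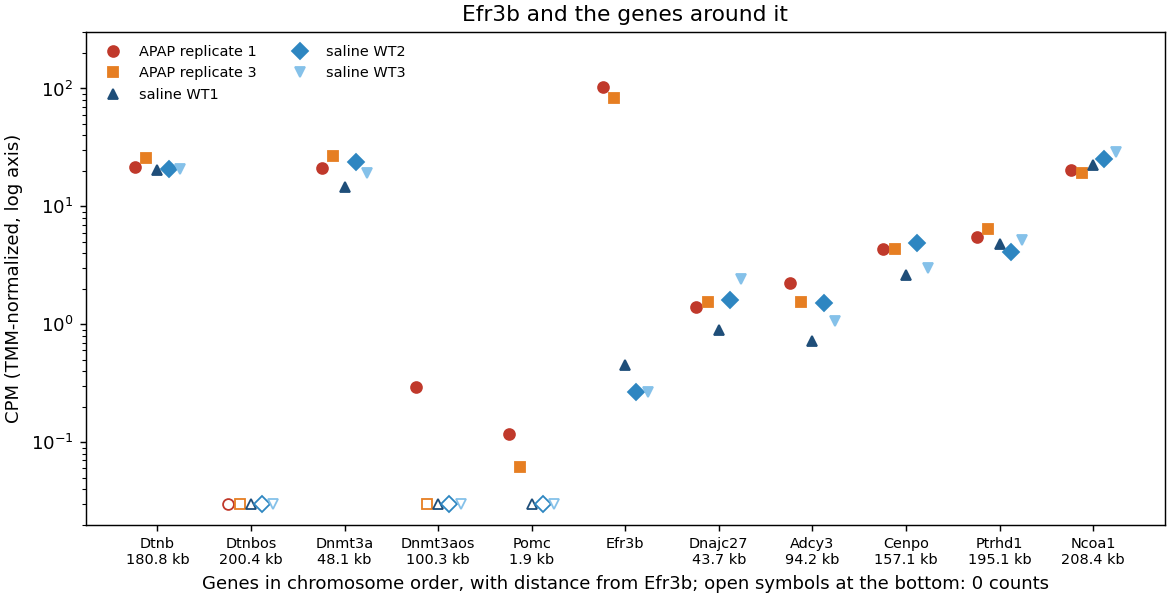
CPM of Efr3b and of the 10 genes listed within 250 kb of it, in chromosome order with their distance in kb, for each library on a log axis. Open symbols at the bottom mark libraries with 0 counts. Efr3b differs between the groups by 294-fold in summed counts per normalized read, while the log2 fold changes of the 7 tested neighbours lie between −0.38 and 0.76.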

How the data were processed

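Livers were sequenced on an Illumina NovaSeq platform, and the authors deposited raw read counts per gene, obtained with HISAT2. The submitters' processing notes name GRCm38 and mm10. The annotation and the strand setting are not given in the sources used here. The 5 columns of FPKM were not used, since the count test needs only the counts.

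Counts were filtered with filterByExpr (minimum count 10, minimum total 15), normalized by TMM and compared by the quasi-likelihood test of edgeR 4.0.16 in R 4.3.3 with Benjamini-Hochberg adjustment over all 13734 tested genes. DESeq2 1.42.0 was an alternative, as were other scalings, filters and thresholds and each library left out. The neural sum without Syt1 was added after seeing the data. Scripts were tested on simulated data. The standard error of a log2 fold change was its size divided by the square root of the F statistic. Counts of 3 corresponded to between 0.176 and 0.269 CPM. Intervals and this floor reflect counting error alone and treat each count as independent. The study's methods do not state whether molecular identifiers were used.

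Merged exon lengths, overlaps and shared 50-base words came from GENCODE M21 (GRCm38), where Efr3b, Efr3a, Pi4ka and Ttc7 had the same coordinates as in the table. Promoters came from RefSeq. The members and lists were chosen with earlier results of these data known. Named were the 5 members, the other genes of the complex, pathway genes with an adjusted p under 0.05, the 2 most abundant tested genes of each pathway list, tested protein-coding neighbours of Efr3b, the 5 genes most like Efr3b (log2 CPM with a prior count of 2), Alb and the sex-linked genes. Alb is given within the hepatocyte sum. Outside this rule, Acbd3, Apoa2, Marco, Pi4kb, Pitpnc1, Pitpnm1, Pitpnm2, Plce1, Pomc, Sprr1a, Syt1 and the overlapping genes were named after their values were seen. So were the neutrophil and monocyte genes Camp, Ccr2, Chil3, Cxcr2, Mmp8, Ngp, Retnlg, S100a8, Trem1 and Vcan. Python 3.11.15 was used for annotation and plots.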

Additional observations from a re-analysis of the deposited data

How the results depend on the processing

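The log2 fold changes of Efr3b, Efr3a, Ttc7 and Ttc7b kept their sign under every alternative that gave a value. Scaling to library size only gave 8.55 for Efr3b, −0.023 for Efr3a, 1.27 for Ttc7, −1.13 for Ttc7b and 0.16 for Pi4ka, whose sign was reversed. It moved the median of all tested genes to 0.42 and the share of higher genes among those called from 51.2% to 77.8%. With 1 library left out, Efr3b lay between 7.99 and 8.41, Efr3a between −0.50 and −0.32, Ttc7 between 0.79 and 1.02, Ttc7b between −2.05 and −1.06, Pi4ka between −0.32 and 0.047 (0.047 without WT3) and the log2 ratio of Efr3b to Efr3a between 8.39 and 8.82. A filter of 10 counts in every library removes Efr3b and gave no value for it.

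The 993 genes called became 2093 with DESeq2, 3228 at the study's thresholds (1.5-fold or more with an unadjusted P under 0.05), and 165 (without WT2) to 922 with 1 library left out, with 235 and 401 without APAP replicates 1 and 3 and 510 without WT1. The phosphoinositide genes called, 0 of 50, became 1 with DESeq2's size factors in edgeR, 2 with library size only, 2 without a filter, 3 of 47 with 10 counts in every library, 5 with DESeq2, 8 at the study's thresholds, and 0 to 2 with 1 library left out (2 without WT3, 1 without APAP replicate 3). The neighbours of Efr3b called stayed at 0 throughout. The cause of these shifts was not tested.

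No paired analysis was possible because the saline columns could not be matched to the numbered saline samples, so the fit with a replicate block was not run, nor was the fit without APAP replicate 2, which was not analysed here. With 2 APAP libraries the precision of each fold change is limited, and the saline level of Efr3b rests on 4 or 5 counts per library.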
